A study of Mus musculus with 18 samples.

Results

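The genes described here encode 46 proteins that act at or just below the T cell receptor (TCR), taken by symbol from a table of 37236 genes. By their known roles 26 were grouped as activators of the signal, 15 as inhibitors and 5 as proteins with both roles. All 46 had a row in the table, and all 46 passed the filter on low values that left 11992 genes for testing. They were measured in CD3+ tumor-infiltrating T cells of mice with or without the nuclear receptor NR2F6, with and without blockade of the checkpoint ligand PD-L1.

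When the TCR binds its antigen, the kinases LCK and FYN phosphorylate the CD3 chains, ZAP70 docks there, and the adaptors LAT and SLP-76 gather PLCγ1, VAV1 and GRB2 into a complex. PLCγ1 makes inositol trisphosphate, which opens the calcium route through STIM1 and ORAI1, and diacylglycerol, which recruits RasGRP1 and protein kinase C θ. Phosphatases, the kinase CSK, CBL ubiquitin ligases, UBASH3 proteins and diacylglycerol kinases set the threshold by reversing these steps, and in tumors the strength and length of this signal are linked to T cell exhaustion.

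C57BL/6 mice of 8 to 12 weeks, either Nr2f6+/+ or germline Nr2f6-/- and so lacking the gene in every cell, received 500000 B16-OVA melanoma cells (B16 cells that carry ovalbumin) under the skin. From day 3 they were given 0.5 mg of anti-PD-L1 (clone 10F.9G2) or of the IgG2b control antibody (clone LTF-2) and further doses at intervals, and the tumors were taken on day 14. T cells were enriched with CD4 and CD8 beads, pooled and sorted for CD3, and their RNA was read as 3′ tags. There were 3 samples of Nr2f6+/+ with IgG2b, 3 of Nr2f6-/- with IgG2b, 6 of Nr2f6+/+ with anti-PD-L1 and 6 of Nr2f6-/- with anti-PD-L1. The knockout mice had been backcrossed 8 times to C57BL/6.

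The samples held 12473391 to 18609482 reads on genes, and 3 reads, taken as the detection floor, corresponded to 2.46 to 3.64 normalized counts. Nr2f6 had 0 reads in all 9 Nr2f6-/- samples and 20.2 to 200.8 normalized counts in the 9 Nr2f6+/+ samples. By library number the samples formed 2 sets, the first with 12 libraries from the 4 groups and the second with 6 libraries from the anti-PD-L1 groups alone. The difference between IgG2b and anti-PD-L1 samples is therefore also, in part, a difference between library sets, and values from the first set alone are given beside the treatment results below. Summed normalized counts of 7 T cell markers, none of them at 0 throughout, were 71211 to 87596 in Nr2f6+/+ with IgG2b, 98098 to 106665 in Nr2f6-/- with IgG2b, 76013 to 121551 in Nr2f6+/+ with anti-PD-L1 and 103357 to 127346 in Nr2f6-/- with anti-PD-L1. Those of 14 macrophage and monocyte markers were 15407 to 29264 in the IgG2b samples and 5038 to 12481 in the anti-PD-L1 samples, without overlap. The macrophage gene Lyz2 was at 2925 to 7325 normalized counts in the IgG2b samples and at 296 to 1979 in the anti-PD-L1 samples. The 6 B cell markers summed to 1876 to 4160 with IgG2b and 901 to 2688 with anti-PD-L1, nearly all of it Ighm (900.3 to 4153), while Cd79a was at 0 in every sample, Cd79b reached 192 and the other 3 averaged under 3 normalized counts. The 4 NK cell markers summed to 24377 to 35729 with IgG2b, 22567 to 54487 in Nr2f6+/+ with anti-PD-L1 and 48006 to 64419 in Nr2f6-/- with anti-PD-L1. Most of that sum was Nkg7 (mean 39822), which cytotoxic T cells also express, whereas the NK cell receptors Ncr1 (0 to 83.4, mean 8.72) and Klrb1c (0 to 209, mean 39.9) were low. The 7 melanoma markers summed to 2026 to 7149 in Nr2f6+/+ and 736 to 4371 in Nr2f6-/-. The 4 platelet markers summed to 2300 to 2611 in Nr2f6+/+ with IgG2b, 268 to 703 in Nr2f6-/- with IgG2b and 0 to 294 with anti-PD-L1. The platelet sum was mostly Pf4 (mean 493.2), with Gp9 at 0 in every sample and Itga2b at a mean of 0.82. The part that these other cells play in the differences below was not tested, and in bulk samples fewer cells of a type and less RNA per cell cannot be told apart.

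To put the members beside the DNA at their start sites, windows of 300 bases (250 before to 50 after the start) were taken from RefSeq on build GRCm38.p6, of which 55 belonged to 36 of the 46 members. They were searched on both strands for AGGTCA, a core element that nuclear receptors such as NR2F6 can bind, and for CCGGAAGT (ETS factors), TGTGGT (RUNX factors) and TGACTCA (AP-1). The AGGTCA letters stood in 8 of the 55 member windows (14.5%) and in 16.3% of all 32851 windows. The RUNX letters stood in 9 (16.4%, against 16.8% of all windows), the ETS letters in 1 (1.82%, against 3.89%) and the AP-1 letters in 0 (against 5.20%). The windows of 3 members on which the results below turn are shown, with a match to any of the searched motifs in capitals. The Ptpn22 window has 3 matches to the RUNX letters on the opposite strand, the first bases at -165, -48 and 8 from the start, the Itpkb window has no match, and the Ubash3b window has the AGGTCA letters on the gene's strand at -50. Ptpn22 and Ubash3b each have a further window, at chr3:103859545-103859844 and chr9:41158013-41158312, in which no searched motif was found. Both Ubash3b windows lie within the gene (chr9:41010760-41161692, minus strand), and the one shown, at an internal start, lies further from its upstream end. A match is a description of these letters only.
Ptpn22, chr3:103860027-103860326, plus strand: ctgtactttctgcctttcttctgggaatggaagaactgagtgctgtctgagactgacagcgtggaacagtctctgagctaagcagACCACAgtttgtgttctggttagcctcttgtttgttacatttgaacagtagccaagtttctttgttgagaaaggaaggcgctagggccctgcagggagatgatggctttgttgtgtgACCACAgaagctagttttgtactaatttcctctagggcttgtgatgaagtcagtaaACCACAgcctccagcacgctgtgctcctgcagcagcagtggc
Itpkb, chr1:180330226-180330525, plus strand: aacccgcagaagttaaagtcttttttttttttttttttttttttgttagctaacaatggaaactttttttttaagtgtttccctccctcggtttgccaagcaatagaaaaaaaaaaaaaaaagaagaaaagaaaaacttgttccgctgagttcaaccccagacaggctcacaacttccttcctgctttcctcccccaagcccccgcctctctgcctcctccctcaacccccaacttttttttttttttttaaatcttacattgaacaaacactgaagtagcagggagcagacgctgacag
Ubash3b, chr9:41079457-41079756, minus strand: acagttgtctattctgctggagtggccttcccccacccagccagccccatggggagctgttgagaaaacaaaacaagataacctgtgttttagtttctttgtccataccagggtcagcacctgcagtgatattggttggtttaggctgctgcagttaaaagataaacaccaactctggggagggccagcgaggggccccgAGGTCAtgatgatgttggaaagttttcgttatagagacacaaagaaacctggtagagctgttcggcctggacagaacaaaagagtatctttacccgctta

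Loss of NR2F6 with anti-PD-L1 was the comparison with the most samples (6 against 6). None of the 46 members passed limma's test at an adjusted p under 0.05 (background 0.175% of all genes, 21 of 11992), and the smallest adjusted p of a member was 0.147. At an unadjusted p under 0.05, 4 of the 46 members were higher (8.70%, background 4.66%) and 1 was lower (2.17%, background 5.07%). By count tests on the recovered reads, DESeq2 called 2 members, Ptpn22 and Itpkb (background 1.57%), and edgeR called 0. In direction, 32 of the 46 members were higher in Nr2f6-/-, or 69.6%, against 49.6% of all genes, and the median log2 fold change was 0.21 against -0.0049 over all genes. The activators (16 of 26 higher, median 0.18) and the inhibitors (11 of 15 higher, median 0.19) had nearly the same median, and the 5 members with both roles were higher throughout (median 0.34). The 95% interval of the log2 fold change lay within 1 in either direction for 36 of the 46 members, so that a 2-fold difference was outside the interval for these. Folds here and below are on the scale of log2(normalized count + 1), and those of low or scattered genes can be smaller or larger than by count tests. For Trat1 the value in this comparison was 1.43, against 2.01 by DESeq2. For anti-PD-L1 against IgG2b in Nr2f6-/- it was -2.26, against -0.21 by DESeq2.

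Ptpn22, encoding the phosphatase that acts on LCK and ZAP70 together with CSK, had the smallest p of the members in this comparison. With anti-PD-L1 its normalized counts ranged from 1742 to 2301 (median 1907) in Nr2f6+/+ and from 2346 to 3233 (median 3015) in Nr2f6-/-. Every knockout sample was above every wild-type sample. The log2 fold change was 0.58 (SE 0.16, 95% interval 0.26 to 0.91, n = 6 and 6), with a limma adjusted p of 0.147 and a DESeq2 adjusted p of 0.00565. It was 0.62 in the first library set and 0.54 in the second. With IgG2b the values were 2453, 1734 and 1965 in Nr2f6+/+ and 2910, 3078 and 3513 in Nr2f6-/-, a log2 fold change of 0.64 (SE 0.22, limma adjusted p = 0.846). These did not overlap either, but with 3 samples against 3 that held for 6.10% of all genes on the higher side, and for 4 of the 46 members (Ptpn22, Pag1, Themis and Cblb). The test between the 2 antibodies gave a difference of -0.06 (95% interval of the anti-PD-L1 value less the IgG2b value -0.62 to 0.51). Averaged over both treatments, a contrast chosen after seeing the data, it was 0.61 (SE 0.14, limma adjusted p = 0.0830), while 6 genes of the whole table passed in that contrast (background 0.05%) and 0 members did.

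Itpkb, whose kinase turns inositol trisphosphate into the tetrakisphosphate and so dampens calcium release while feeding other signals, was the other member without overlap in this comparison. Its normalized counts ranged from 1100 to 1589 (median 1389) in Nr2f6+/+ with anti-PD-L1 and from 1746 to 2611 (median 2050) in Nr2f6-/- with anti-PD-L1. The log2 fold change was 0.62 (SE 0.18, 1.54-fold, limma adjusted p = 0.214, DESeq2 adjusted p = 0.0227), and 0.35 and 0.90 in the 2 library sets. With IgG2b the order was the other way, with 1602, 1351 and 1543 in Nr2f6+/+ and 1252, 1022 and 1441 in Nr2f6-/-, and these groups overlapped (log2 fold change -0.29, SE 0.26). The test of the difference between the genotypes' anti-PD-L1 effects gave 0.91 for Itpkb (SE 0.32, unadjusted p = 0.00766, limma adjusted p = 0.974). Across all genes 0.392% were higher without overlap in this comparison, among them these 2 of 46 members, and 0.200% were lower without overlap, among them 0 members.

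Prkcq, encoding protein kinase C θ, had the largest difference of the activators past an unadjusted p of 0.05. Its normalized counts ranged from 201.4 to 867 (median 439) in Nr2f6+/+ and from 666 to 1208 (median 924) in Nr2f6-/- with anti-PD-L1. The groups overlapped through 1 wild-type sample at 867, and the others of that group reached no more than 539. The log2 fold change was 1.02 (SE 0.31, 95% interval 0.39 to 1.65, limma adjusted p = 0.220) and was 1.02 in each library set taken alone. Its partners in the complex that leads to NF-κB, Bcl10 (0.40, SE 0.23) and Malt1 (-0.14, SE 0.39), had intervals that included 0. With IgG2b, Prkcq stood at 543, 571 and 487 in Nr2f6+/+ and at 693, 504 and 1095 in Nr2f6-/- (log2 fold change 0.45, SE 0.43).

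Among the surface receptors, Cd2, an adhesion receptor that strengthens the TCR signal, ranged from 2694 to 5729 (median 3541) in Nr2f6+/+ and from 4632 to 5431 (median 5055) in Nr2f6-/- with anti-PD-L1. One wild-type sample, at 5729, was the highest of all 12, and the other 5 were below every knockout sample. The log2 fold change was 0.46 (SE 0.18, limma adjusted p = 0.371). All 5 members of this group were on the higher side, with Cd5 at 0.43 (SE 0.23), Sh2d1a, encoding the SLAM adaptor SAP, at 0.30 (SE 0.29), Ptprc, the CD45 phosphatase, at 0.23 (SE 0.16) and Cd6 at 0.05 (SE 0.25). Cd5, an inhibitory coreceptor, came to 0.84 in the first library set and 0.01 in the second.

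**Figure D1:**
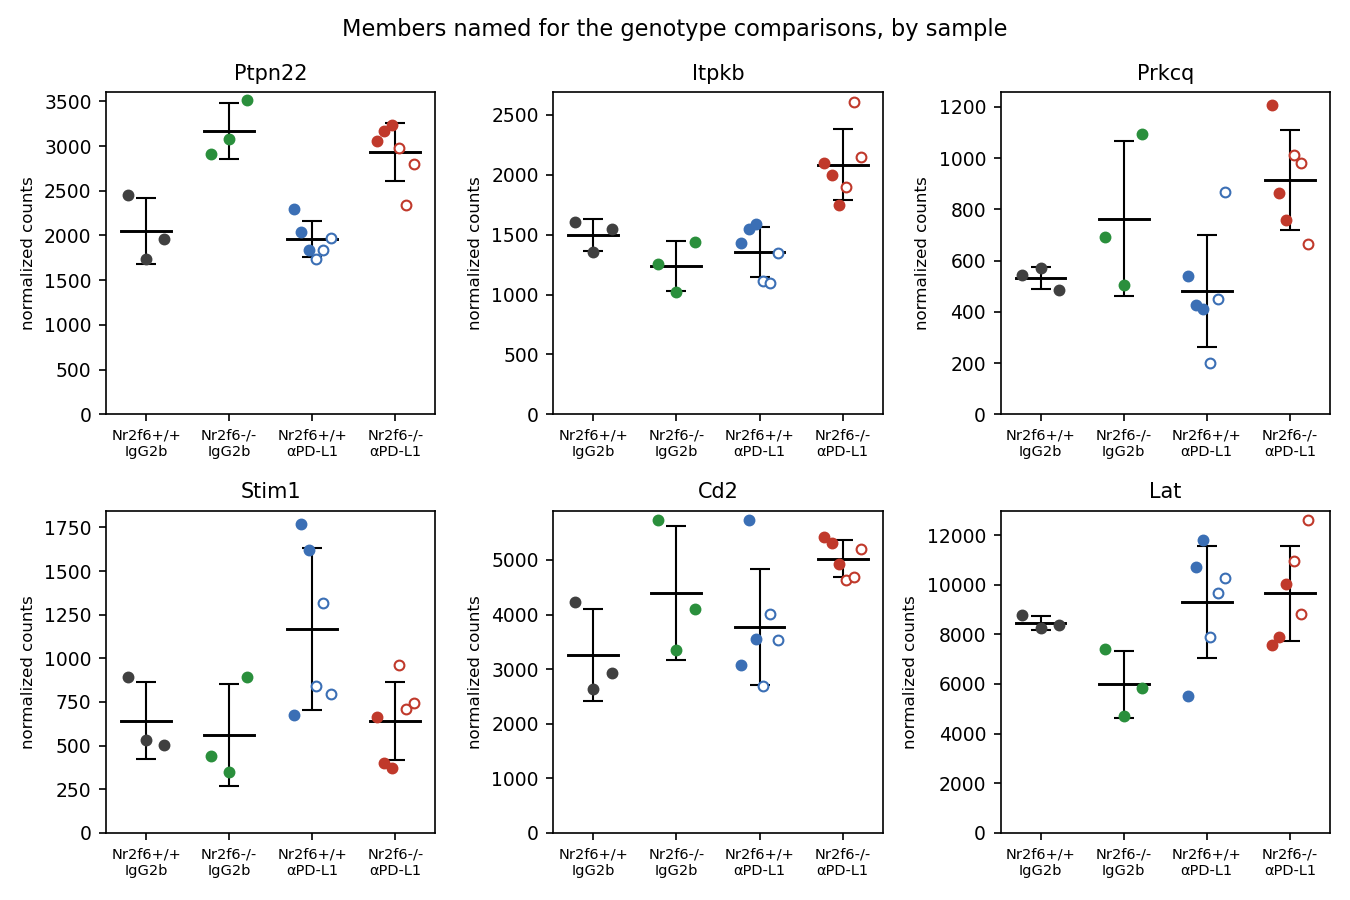
Normalized counts (y axis, from 0) of 6 members in each sample of the 4 groups (x axis), filled points for the first and open points for the second library set, with the mean (line) and SD (bars). Ptpn22 separates the genotypes with both antibodies, whereas Itpkb does so with anti-PD-L1 and Stim1, Cd2, Prkcq and Lat overlap there.

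The calcium members went the other way apart from Itpkb. Stim1, the calcium sensor of the endoplasmic reticulum, ranged from 674 to 1772 (median 1081) in Nr2f6+/+ with anti-PD-L1 and from 369 to 962 (median 687) in Nr2f6-/- with anti-PD-L1. The groups overlapped, and the log2 fold change was -0.85 (SE 0.32, limma adjusted p = 0.357), with -1.43 in the first library set and -0.26 in the second. Orai1, the channel that STIM1 opens, was at -0.41 (SE 0.21, unadjusted p = 0.0556), at -0.42 and -0.41 in the 2 sets. Itpr1, the inositol trisphosphate receptor, was at -0.39 (SE 0.39) and changed sign between the sets, from 0.47 to -1.25.

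The 13 adaptors and effectors of the LAT complex had 11 members on the higher side with a median of 0.24, none past an unadjusted p of 0.05. The largest were Trat1 at 1.43 (SE 1.60) and Grap2, which encodes the adaptor GADS, at 0.86 (SE 0.42). Trat1 was at 0 in 6 of the 18 samples and had the lowest mean of the members, 49.3 normalized counts, and its interval ran from -1.83 to 4.70. Lat itself was at 0.07 (SE 0.17, 95% interval -0.28 to 0.42), Plcg1 at 0.12 (SE 0.22), Grb2 at -0.0023 (SE 0.19) and Lcp2, encoding SLP-76, at 0.21 (SE 0.19). Vav1, an exchange factor for Rac, was at -0.30 (SE 0.19). The actin-linked adaptor Nck1 was at 0.39, Was, encoding the actin regulator WASP, at 0.24 and the adhesion adaptor Skap1 at 0.22. Themis, which acts with SHP-1, was at 0.35, Sh2d2a at 0.34 and Pik3cd at 0.31.

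Of the kinases, Fyn was at 0.39 (SE 0.22), Txk, a Tec family kinase, at 0.33 (SE 0.27), Lck at 0.15 (SE 0.18) and Zap70 at -0.20 (SE 0.17). All 4 intervals included 0 and lay within 1 in either direction. The 3 exchange factors that load Ras were on the lower side, Rasgrp1 at -0.35 (SE 0.23), Rasgrp2 at -0.41 (SE 0.46) and Sos1 at -0.41 (SE 0.51). Rasgrp2 was 0.23 in the first library set and -1.04 in the second, so that its direction differed between them.

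Among the phosphatases and the CSK module, Ptpn6 (SHP-1) was at 0.32 (SE 0.24), Ptpn2, which acts on LCK and JAK kinases, at 0.27 (SE 0.38), Ptpn7, which acts on MAP kinases, at -0.35 (SE 0.23), Csk at -0.19 (SE 0.20) and Pag1, the membrane anchor of CSK, at 0.22 (SE 0.30). The intervals of these 5 members included 0, while that of Ptpn22 did not. The ubiquitin ligases Cblb and Cbl were at 0.17 (SE 0.19) and -0.08 (SE 0.61), Ubash3a and Ubash3b at 0.31 (SE 0.31) and 0.12 (SE 0.19), and the SLAP adaptors Sla and Sla2 at -0.04 (SE 0.15) and 0.30 (SE 0.23). The diacylglycerol kinases Dgka and Dgkz, which remove the diacylglycerol that recruits RasGRP1, were at 0.19 (SE 0.31) and 0.08 (SE 0.19). Dgka shares exon sequence on the opposite strand with the melanoma gene Pmel, which stood at 119 to 1891 normalized counts over the 18 samples. The strand setting of the counting is not given in the sources used here, so how reads of the shared stretch were assigned is not known. In all, 15 members share exon sequence with another annotated gene, and for 10 of them that gene has a row in the table.

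**Figure D2:**
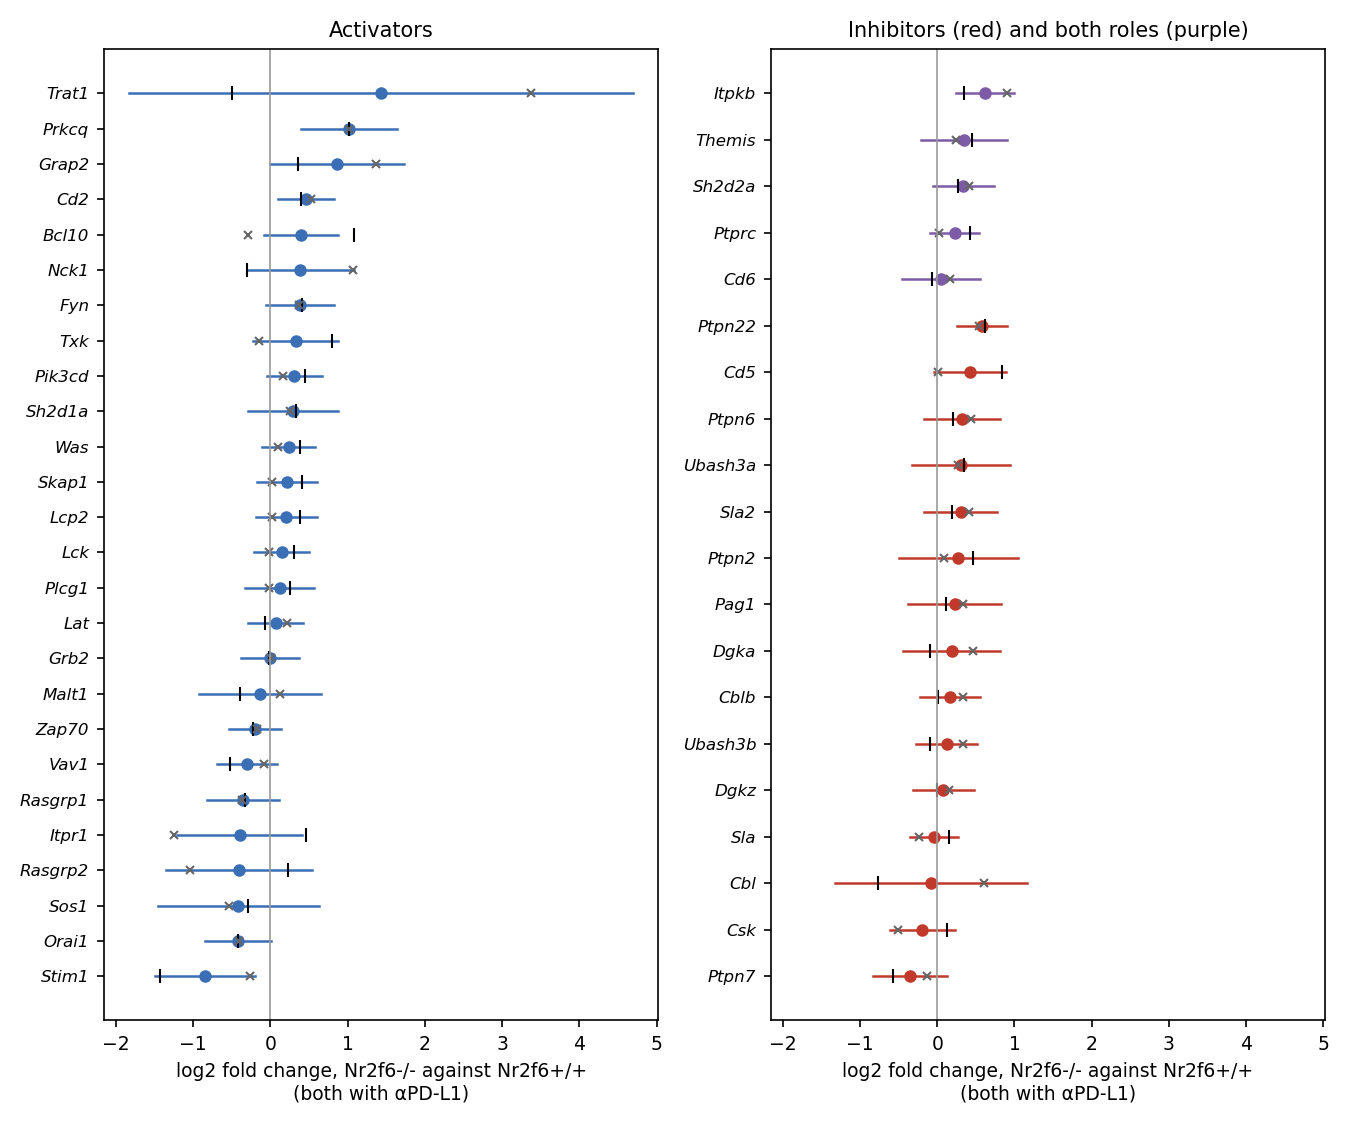
Log2 fold change (x axis) of each of the 46 members (y axis) in Nr2f6-/- against Nr2f6+/+ with anti-PD-L1, with its 95% interval from limma (line), the value in the first library set (tick) and in the second (cross), for 6 samples a group. Most points lie right of 0 with intervals across it, those of Ptpn22, Itpkb, Prkcq and Cd2 lie wholly to the right, and that of Stim1 lies wholly to the left.

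The library sets are separate samples of the same comparison, but no label ties samples to animals, so whether the sets share animals is not known. In both sets 22 of the 46 members were higher in Nr2f6-/- (47.8%, against 26.3% of all genes) and 7 were lower in both (15.2%, against 25.8%). By role these were 9 of 26 activators and 9 of 15 inhibitors higher in both sets. The T cell marker sum was also higher in Nr2f6-/- with anti-PD-L1 (mean 116034 against 93160), and its part in the direction of the members was not tested.

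Loss of NR2F6 with IgG2b, 3 samples against 3, gave 0 members past an adjusted p of 0.05 (background 0.00%), and neither DESeq2 (background 0.750%) nor edgeR called one. At an unadjusted p under 0.05, 1 member was higher, Ptpn22 (background 2.03%), and 1 was lower, Lat (background 3.32%). Again 32 of the 46 were on the higher side (69.6%, against 45.6% of all genes), with a median of 0.13 for the activators and 0.11 for the inhibitors against -0.06 over all genes. Leaving out 1 sample took the first to between 0.03 and 0.14, lowest without replicate 1 of Nr2f6-/- with IgG2b, and the second to between 0.06 and 0.20. Lat, the adaptor on which the complex is built, read 8774, 8240 and 8367 normalized counts in Nr2f6+/+ and 7413, 4710 and 5825 in Nr2f6-/-. All 3 knockout samples were below the wild-type samples, as for 2 of the 46 members (Lat and Rasgrp2) and 8.07% of all genes, with a log2 fold change of -0.52 (SE 0.24, limma adjusted p = 0.920), where Lat had shown 0.07 with anti-PD-L1. The 13 members of the LAT complex did not share this direction, with 7 on the higher and 6 on the lower side and a median of 0.01. Plcg1 was at -0.52 (SE 0.31), Pik3cd at -0.44 (SE 0.24) and Skap1 at -0.33 (SE 0.27), against Grap2 at 0.43 (SE 0.60), Themis at 0.38 (SE 0.38), Sh2d2a at 0.35 (SE 0.27) and Grb2 at 0.19 (SE 0.26). Rasgrp2 read 448 to 566 in Nr2f6+/+ and 206 to 330 in Nr2f6-/-, a log2 fold change of -1.02 (SE 0.66). The genotype comparisons with the 2 antibodies share no samples, and 23 of the 46 members were higher in Nr2f6-/- in both (50%, against 24.4% of all genes). With IgG2b the T cell marker sum was also higher in Nr2f6-/- (98098 to 106665) than in Nr2f6+/+ (71211 to 87596), without overlap. Its part in the direction of the members was not tested.

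The next question was what PD-L1 blockade did to the members in each genotype. In Nr2f6+/+, 6 samples with anti-PD-L1 against 3 with IgG2b, 0 members passed limma's adjusted threshold (background 0.242%), and DESeq2 (background 0.801%) and edgeR called 0. At an unadjusted p under 0.05, 3 members were higher, Ubash3b, Stim1 and Cd6 (background 2.19%), and 1 was lower, Bcl10 (background 5.05%). On the higher side were 22 of the 46 (47.8%, against 42.6% of all genes). Without overlap, 1 member was higher, Zap70 (0.29, SE 0.20, background 1.32%), and 1 was lower, Rasgrp2 (-0.52, SE 0.57, background 3.22%). The activators had a median log2 fold change of -0.13 and the inhibitors of 0.17, against -0.10 over all genes, and leaving out 1 sample gave -0.15 to -0.09 and 0.10 to 0.19.

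Ubash3b, whose phosphatase STS-1 removes phosphate from ZAP70, read 3277, 3689 and 3982 normalized counts with IgG2b and 3416 to 10430 (median 6019) with anti-PD-L1 in Nr2f6+/+. Of the 6 blocked samples, 5 were above all 3 controls. The log2 fold change was 0.70 (SE 0.24, 1.62-fold, limma adjusted p = 0.402) and 0.64 in the first library set. In Nr2f6-/- it read 4238, 4477 and 3517 with IgG2b and 4911 to 8314 (median 6483) with anti-PD-L1, without overlap (background 1.97%), a log2 fold change of 0.66 (SE 0.24, limma adjusted p = 0.307) and 0.39 in the first set. Averaged over both genotypes, a contrast chosen after seeing the data, Ubash3b rose by 0.68 (SE 0.17, limma adjusted p = 0.0374), as 1 of 46 members and of 136 genes called (background 1.13%). The call was lost in 17 of 29 alternatives, among them the first library set alone (0.51, adjusted p = 0.338) and leaving out any 1 of the 6 IgG2b samples or any 1 of the 6 samples of the second library set. Its paralog Ubash3a, which binds ubiquitin and has a weak phosphatase, was at 0.26 (SE 0.38) in Nr2f6+/+ and at 0.96 (SE 0.38, unadjusted p = 0.0171, limma adjusted p = 0.367) in Nr2f6-/-, and at 0.34 and 1.09 in the first set.

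Bcl10, the adaptor that activates MALT1, was the member with the lowest p on the lower side. It read 1555, 3109 and 1779 with IgG2b and 872 to 1775 (median 1294) with anti-PD-L1 in Nr2f6+/+, where the groups overlapped. The log2 fold change was -0.67 (SE 0.29, limma adjusted p = 0.595) and -1.0 in the first library set. In Nr2f6-/- it read 3010, 3392 and 2058 with IgG2b and 1125 to 2547 (median 1697) with anti-PD-L1, a log2 fold change of -0.70 (SE 0.29, limma adjusted p = 0.394) that was -0.35 in the first set. Averaged over genotypes it was -0.69 (limma adjusted p = 0.0929), and DESeq2 called Bcl10 in that contrast (adjusted p = 0.0473, background 2.84%).

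Cd6, a coreceptor with both roles, read 1188, 1068 and 931 with IgG2b and 1059 to 3076 (median 1469) with anti-PD-L1 in Nr2f6+/+, a log2 fold change of 0.62 (SE 0.30, limma adjusted p = 0.685). In Nr2f6-/- it read 1014, 1458 and 812 with IgG2b and 1184 to 2529 (median 1639) with anti-PD-L1 (0.66, SE 0.30, limma adjusted p = 0.464). Both pairs of groups overlapped, and the first library set gave 0.70 and 0.63. Stim1 read 895, 532 and 501 with IgG2b and 674 to 1772 (median 1081) with anti-PD-L1 in Nr2f6+/+ (0.82, SE 0.39, limma adjusted p = 0.675), and its value in Nr2f6-/- was 0.23 (SE 0.39). In the first set these were 1.01 and -0.16, so that its direction in Nr2f6-/- turned.

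In Nr2f6-/-, again 6 samples with anti-PD-L1 against 3 with IgG2b, 0 members passed limma's adjusted threshold (background 0.325%), DESeq2 called 1, Itpkb (background 1.96%), and edgeR called 0. At an unadjusted p under 0.05, 10 of 46 members were higher (background 4.34%) and 1 was lower (background 5.35%). On the higher side were 26 of the 46 (56.5%, against 47.1% of all genes). Those past the unadjusted p were the inhibitors Ubash3b, Ubash3a, Sla2 and Cbl, the activators Lat, Pik3cd, Plcg1 and Lck, and Itpkb and Cd6. The 3 with the smallest p were Itpkb, Lat and Ubash3b, which were also the 3 members of 46 without overlap on the higher side (background 1.97%), while 0 were so on the lower side (background 3.15%).

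Itpkb in the knockout had a log2 fold change of 0.75 with anti-PD-L1 (SE 0.22, 1.69-fold, limma adjusted p = 0.202, DESeq2 adjusted p = 0.0204) and of 0.66 in the first library set, against -0.16 (SE 0.22) in Nr2f6+/+ and 0.03 there in the first set. Lat read 7413, 4710 and 5825 with IgG2b and 7559 to 12594 (median 9429) with anti-PD-L1 in Nr2f6-/-, a log2 fold change of 0.69 (SE 0.21, limma adjusted p = 0.220) that was 0.52 in the first set. In Nr2f6+/+ Lat was at 0.10 (SE 0.21), with 5523 to 11790 normalized counts (median 9960) after blockade. The 3 samples of Nr2f6-/- with IgG2b had a lower mean of Lat (5982) than the other groups (8461 to 9647). Pik3cd, the PI3K subunit p110δ, read 5724, 4917 and 3076 with IgG2b and 5403 to 9636 (median 6120) with anti-PD-L1 in Nr2f6-/- (0.55, SE 0.21, limma adjusted p = 0.342), and 5649, 5935 and 6450 and then 4134 to 6572 (median 5336) in Nr2f6+/+ (-0.20, SE 0.21). The first set gave 0.46 and -0.43 for Pik3cd. The other activators were Plcg1 at 0.63 (SE 0.27) and Lck at 0.44 (SE 0.21), with 0.57 and 0.34 in the first set.

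Among the inhibitors, Sla2, an adaptor that takes TCR chains to CBL for turnover, was at 0.72 (SE 0.28, limma adjusted p = 0.357) in Nr2f6-/- and at 0.44 (SE 0.28) in Nr2f6+/+, with 0.76 and 0.58 in the first set. Its paralog Sla was at -0.05 (SE 0.18) and 0.13 (SE 0.18). Cbl was at 1.62 (SE 0.74, limma adjusted p = 0.472) in Nr2f6-/- and 1.0 (SE 0.74) in Nr2f6+/+, and the first library set alone gave 0.63 and 0.70. Cbl rested on low and scattered values, with 191, 383 and 17.7 normalized counts in the 3 knockout samples with IgG2b. Its paralog Cblb was at -0.10 (SE 0.23) and 0.06 (SE 0.23), and Dgka and Dgkz were between -0.05 and 0.07 in both genotypes (SE 0.37 and 0.24). The macrophage marker sums, lower in every blocked sample, moved with these treatment differences, and their part was not tested.

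**Figure D3:**
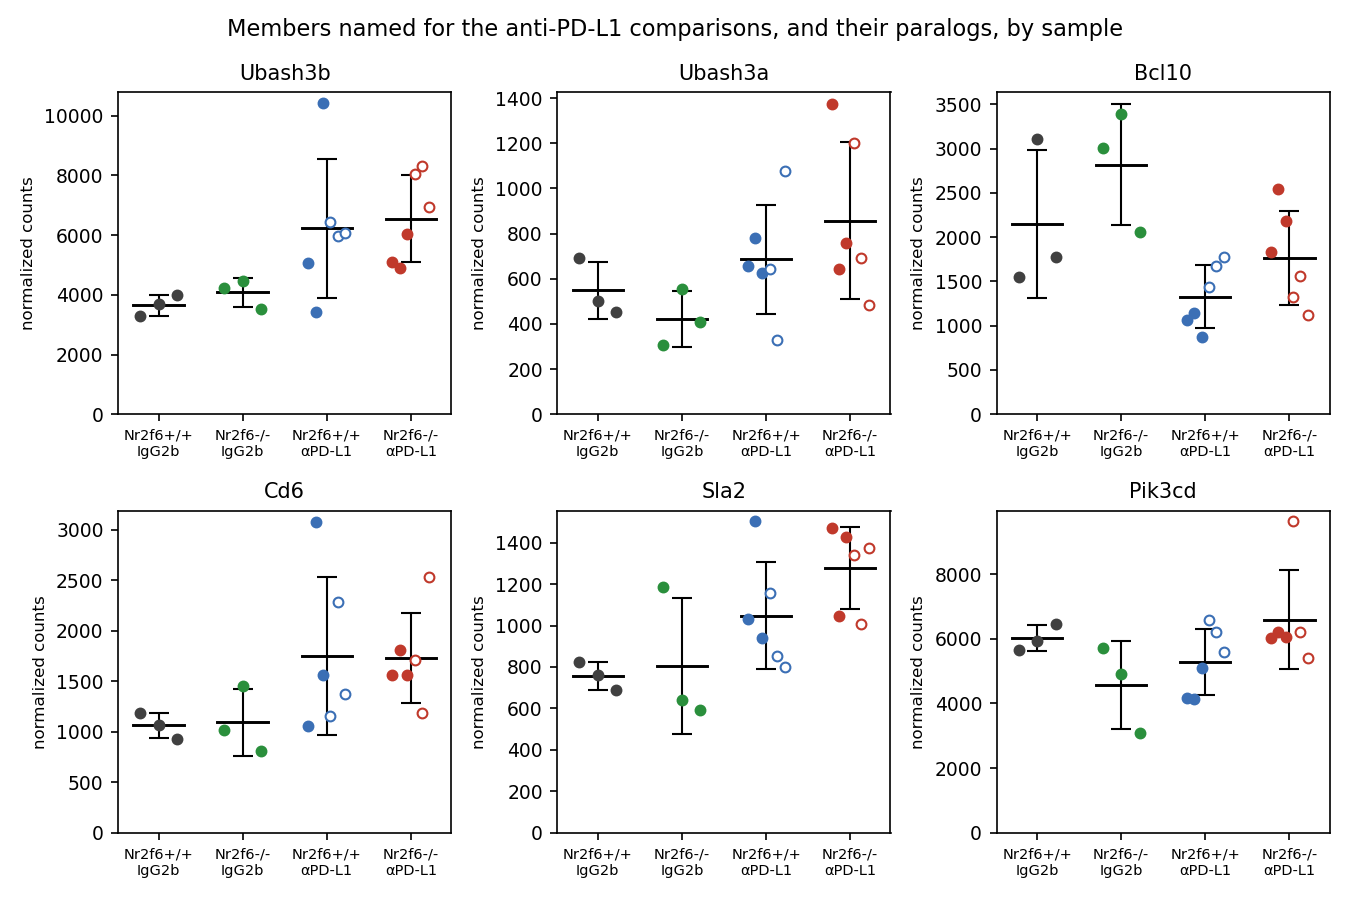
Normalized counts (y axis, from 0) of 6 members in each sample of the 4 groups (x axis), filled points for the first and open points for the second library set, with the mean (line) and SD (bars). Ubash3b is higher with anti-PD-L1 in both genotypes apart from 1 Nr2f6+/+ sample at 3416, Bcl10 lies lower with overlap, and Pik3cd of Nr2f6-/- with anti-PD-L1 has 1 sample at 9636.

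The treatment effects in the 2 genotypes were compared by their difference in limma. No member passed at an adjusted p under 0.05 (background 0.00%), and the smallest adjusted p was 0.974, by DESeq2 and edgeR also 0 members. At an unadjusted p under 0.05, 2 of the 46 members were higher (4.35%, background 3.09%), Itpkb (0.91) and Pik3cd (0.75, SE 0.30, unadjusted p = 0.0172), and 0 were lower (background 1.88%). In direction, 26 of the 46 were above 0 (56.5%, against 53.0% of all genes). For Ubash3b and Bcl10 the difference was -0.04 (SE 0.34) and -0.03 (SE 0.41), with 95% intervals of -0.73 to 0.65 and -0.86 to 0.80.

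**Figure D4:**
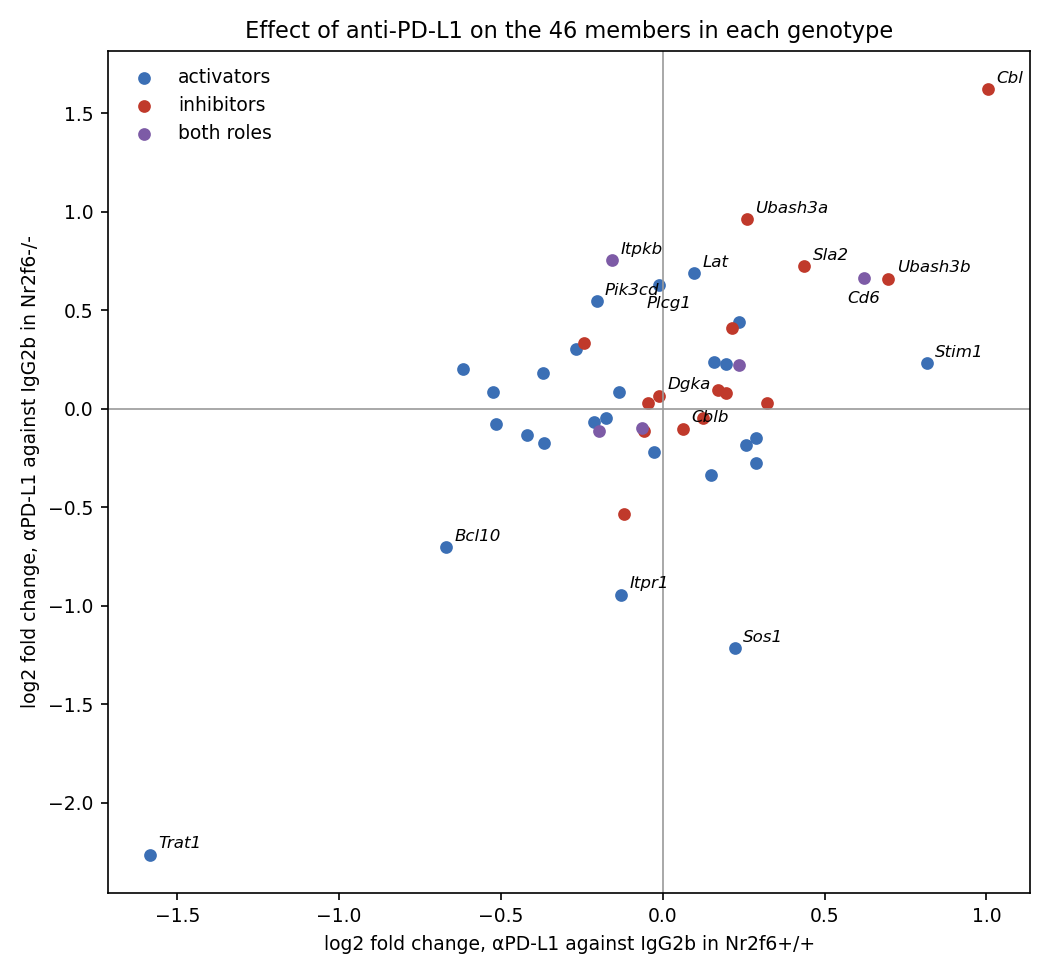
Log2 fold change of anti-PD-L1 against IgG2b in Nr2f6+/+ (x axis) and in Nr2f6-/- (y axis) for each of the 46 members, colored by role. Ubash3b, Cd6, Sla2 and Cbl lie to the upper right and Bcl10 to the lower left, Itpkb, Lat, Plcg1 and Pik3cd lie high on the y axis near 0 on the x axis, and Trat1, at 0 in 6 samples, lies far out at the lower left.

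Against the common control, Nr2f6-/- with anti-PD-L1 was set beside Nr2f6+/+ with IgG2b (6 samples against 3), which shares samples with the comparisons above. Here 0 members passed limma's adjusted threshold (background 0.617%), DESeq2 called 1, Ubash3b (background 1.51%), and edgeR called 0. At an unadjusted p under 0.05, 8 members were higher (background 3.12%) and 0 were lower (background 5.92%). On the higher side were 31 of the 46 (67.4%, against 42.1% of all genes), made up of 14 of 15 inhibitors, 5 of 5 members with both roles and 12 of 26 activators. The medians were 0.23 for the inhibitors, 0.47 for both roles and -0.03 for the activators, against -0.12 over all genes. The median of the activators was near 0 and changed sign on leaving out 1 sample (-0.07 to 0.06) and with the first library set alone (0.05). The 8 members were Ubash3b (0.82, SE 0.24, limma adjusted p = 0.131), Cd2 (0.65, SE 0.22), Ptpn22 (0.52, SE 0.19), Sla2 (0.74, SE 0.28), Sh2d2a (0.57, SE 0.24), Cd6 (0.67, SE 0.30), Cd5 (0.60, SE 0.28) and Itpkb (0.47, SE 0.22). Cd2 is the activator among them, and 4 of the 8 are inhibitors. In the first library set alone the 8 values were, in the same order, 0.55, 0.71, 0.63, 0.78, 0.41, 0.64, 0.71 and 0.38. Sh2d2a, encoding the LCK partner TSAd, ranged from 4693 to 6543 normalized counts in Nr2f6+/+ with IgG2b and from 7405 to 10376 in Nr2f6-/- with anti-PD-L1, without overlap, as for 6 of the 46 members on the higher side (background 2.17%).

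To set activators against inhibitors within a sample, the mean log2(normalized count + 1) of each role was taken. Since Trat1 at 0 can shift such a mean on its own, the values are given without it, a choice made after seeing the data. The inhibitors kept Cbl, the most scattered of the 15 (SD within groups 1.21 on the log2 scale). Cbl also had their largest log2 fold change with anti-PD-L1, 1.0 in Nr2f6+/+ and 1.62 in Nr2f6-/-. Their mean without Cbl was not taken, so its share in the differences below was not tested. The 15 inhibitors averaged 10.2 to 10.4 in Nr2f6+/+ with IgG2b, 10.1 to 10.5 in Nr2f6-/- with IgG2b, 10.4 to 10.6 in Nr2f6+/+ with anti-PD-L1 and 10.5 to 10.7 in Nr2f6-/- with anti-PD-L1. The 25 activators averaged 10.5 to 10.6, 10.5 to 10.6, 10.4 to 10.6 and 10.4 to 10.7 in the same order, and all 4 groups overlapped. The mean of the activators less that of the inhibitors was 0.30 ± 0.13 (SD, n = 3) in Nr2f6+/+ with IgG2b, 0.25 ± 0.19 (SD, n = 3) in Nr2f6-/- with IgG2b, 0.02 ± 0.07 (SD, n = 6) in Nr2f6+/+ with anti-PD-L1 and -0.06 ± 0.16 (SD, n = 6) in Nr2f6-/- with anti-PD-L1. In Nr2f6+/+ the lowest value with IgG2b (0.14) was above the highest with anti-PD-L1 (0.11), whereas in Nr2f6-/- the groups overlapped (0.12 to 0.47 and -0.25 to 0.17). In the first library set alone the 4 means were 0.30, 0.25, -0.0030 and 0.03. With Trat1 the means were 0.03, 0.07, -0.30 and -0.33. The genotypes overlapped with either antibody, and no test was made since the members were chosen as a list.

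**Figure D5:**
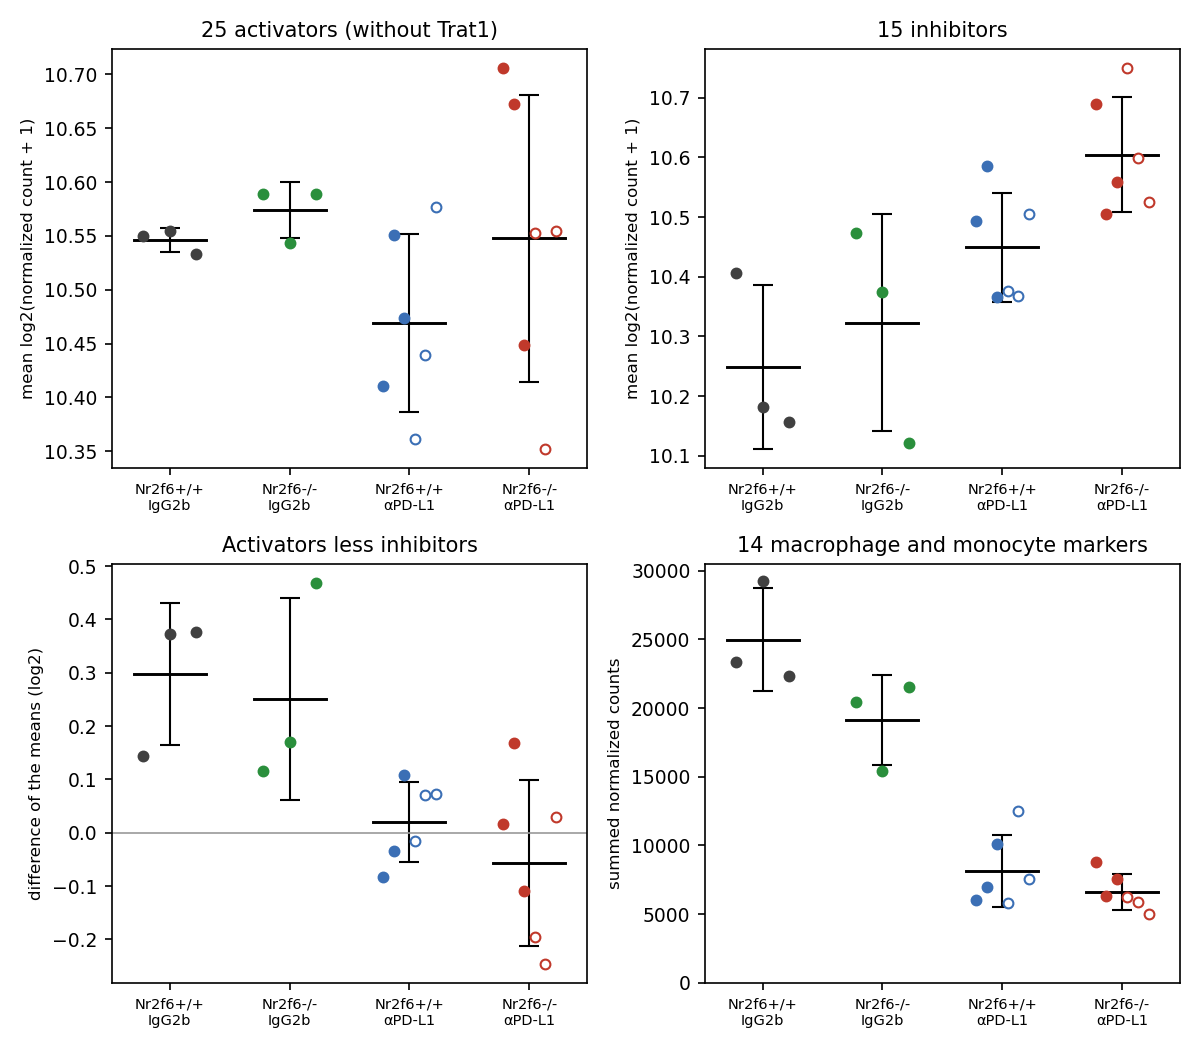
Mean log2(normalized count + 1) of 25 activators (without Trat1) and of 15 inhibitors, their difference, and the summed normalized counts of 14 macrophage and monocyte markers (y axes), for each sample of the 4 groups (x axes), filled points for the first and open points for the second library set, with the mean (line) and SD (bars). The difference is lower in the anti-PD-L1 groups (means 0.02 and -0.06) than in the IgG2b groups (0.30 and 0.25), and the macrophage markers are lower there too.

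A further 42 genes of the same pathway, among them the CD3 chains, coreceptors and the downstream kinases, were looked at beside the members, and 41 of them passed the filter. None passed limma's adjusted threshold in any of the comparisons. In Nr2f6-/- against Nr2f6+/+ with anti-PD-L1, 9 were higher and 1 was lower at an unadjusted p under 0.05, against backgrounds of 4.66% and 5.07%, with 29 of 41 on the higher side (70.7%, against 49.6% of all genes) and a median of 0.20 (against -0.0049). Among those higher were Cd8b1 (0.67), Cd28 (0.66), Cd8a (0.54), Ppp3ca (0.69), Nfatc2 (0.83), Lax1 (1.75) and Pik3r1 (0.47), and on the lower side Rnf128 (-1.25). The limma adjusted p was 0.121 for Cd8b1 (SE 0.18), below the smallest of a member (0.147), and 0.278 for Cd8a (SE 0.18). Cd4 was at -0.12 (SE 0.29), and Cd8a stood above Cd4 by a mean of 1.15 on the log2 scale in the 6 Nr2f6+/+ samples with anti-PD-L1 (SD 1.23, range -0.32 to 3.02) and by 1.81 in the 6 Nr2f6-/- samples (SD 0.73, range 0.95 to 3.08). These ranges overlapped, and the part of the CD8 to CD4 balance in the members' differences was not tested. The CD3 chains, which follow T cell content, were at 0.04 (Cd3d), 0.20 (Cd3e), 0.34 (Cd3g) and 0.30 (Cd247) in that comparison. With IgG2b, 17 of the 41 were higher in Nr2f6-/- (41.5%, against 45.6% of all genes), at a median of -0.05 against -0.06. For anti-PD-L1 against IgG2b in Nr2f6+/+, 12 of the 41 were higher (29.3%, against 42.6% of all genes). In Nr2f6-/- 26 of the 41 were higher with anti-PD-L1 (63.4%, against 47.1% of all genes).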

How the data were processed

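RNA of 18 samples of CD3+ tumor-infiltrating T cells was measured by 3′ tag sequencing (QuantSeq, Ion Torrent). Per the study's methods and the labels, read trimming by the authors used Cutadapt and Trimmomatic, alignment to mm10 used STAR and Bowtie2, and HTSeq gene counts were divided by DESeq2 size factors. Versions and annotation are not given in the sources used here. The deposited signal values are these normalized counts, and 100% of those above 0 were whole reads within 0.1 once multiplied by the size factor. A 3′ kit counts tags, so no test compared levels between genes. The marker sums, Cd8a against Cd4 and the activators less the inhibitors set genes side by side as a description only.

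Each group mean was fitted with limma 3.58.1 (trend, two-sided, R 4.3.3) on log2(normalized count + 1) over all 18 samples, with genes of mean at least 10 and Benjamini-Hochberg adjustment over 11992 genes (threshold 0.05). DESeq2 1.42.0 and edgeR 4.0.16 on the recovered reads, other pseudocounts, filters, scalings, the library set and leaving out each sample were alternatives. No label ties samples to animals. The study's text counts mice per group, with fewer for anti-PD-L1 than the 6 samples used here and no word on which these were, so p-values measure only the spread between these samples. Intervals are 95%, and floors (3 reads) cover counting error only. The fit was tested on simulated data for Nr2f6-/- against Nr2f6+/+ with anti-PD-L1, where of 11679 genes it recovered 39 of 93 changed by 1 and 50 of 102 changed by 2 on the log2 scale. It also called 4 unchanged genes there, and 1 in the IgG2b comparison, where nothing was changed. The changed genes were drawn from all genes, many lower than the members, so these shares are not those of the members.

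Members with values for every sample were the 3 higher and 3 lower with the smallest unadjusted p under 0.05 in each comparison, beside 4 paralog pairs. The members, roles and lists were chosen with earlier results of these data known. Values of some other genes of the pathway are not reported here.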

Additional observations from a re-analysis of the deposited data

Results flagged for a closer look

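In 5 of 92 groups of 6 samples, 1 sample lay far from the other 5 by Dixon's criterion, and chance gives about 1 in 20. In Nr2f6+/+ with anti-PD-L1, Lcp2 was at 1953 normalized counts in replicate 1 (nearest other sample 1458) and Csk at 1039 in replicate 3 (nearest 1721). In Nr2f6-/- with anti-PD-L1, Themis was at 1076 (nearest 1947) and Pik3cd at 9636 (nearest 6217), both in replicate 4, and Rasgrp2 was at 47.7 in replicate 5 (nearest 252). None of these members passed limma's adjusted threshold in any of the 6 comparisons.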

How the results depend on the processing

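No member with an unadjusted p under 0.05 turned its direction under another setting in any of the 6 comparisons. Of the 46 members, 15 to 23, all above that p, turned in at least 1 setting, and 0 to 5 turned by DESeq2. With the first library set alone 7 to 13 turned in the comparisons that include anti-PD-L1 samples. None could turn that way in the genotype comparison with IgG2b, whose samples all lie in the first set. DESeq2 on the recovered reads called 2 members (Itpkb and Ptpn22) in Nr2f6-/- against Nr2f6+/+ with anti-PD-L1, 1 (Itpkb) for anti-PD-L1 in Nr2f6-/- and 1 (Ubash3b) for Nr2f6-/- with anti-PD-L1 against Nr2f6+/+ with IgG2b, where limma and edgeR called 0, and the cause was not tested. The median of the inhibitors moved from 0.08 to 0.21 for anti-PD-L1 in Nr2f6-/- with the first library set alone, and from 0.23 to 0.41 for Nr2f6-/- with anti-PD-L1 against Nr2f6+/+ with IgG2b with the library set as a covariate. Leaving out each sample moved it from 0.19 to between 0.10 and 0.32 in Nr2f6-/- against Nr2f6+/+ with anti-PD-L1, the highest without replicate 2 of Nr2f6+/+ with anti-PD-L1. For anti-PD-L1 in Nr2f6-/- the median of the activators (-0.06) ranged from -0.08 to 0.05 on leaving out 1 sample, and was above 0 without replicate 2 or 3 of Nr2f6-/- with IgG2b or replicate 5 of Nr2f6-/- with anti-PD-L1, in the first library set alone (0.06) and with library set as a term in the fit (0.10). A block on replicate number called 0 members in each of the 6 comparisons, and same-numbered samples did not deviate together (21 correlations, -0.03 to 0.04, 0 over 0.1). No pairing by number was seen, but correlations over all genes can miss a weak one, and no label says what the numbers mean.

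In the averaged contrasts, Ptpn22 passed for genotype in 3 of 29 alternatives (no filter on low values, library set as a covariate, DESeq2) with adjusted p from 0.000256 to 0.313 over them, Bcl10 passed for anti-PD-L1 in 1 of 29 (DESeq2), from 0.0473 to 0.358, and Ubash3b in 12 of 29, from 0.00293 to 0.338. With the replicate block Ubash3b did not pass (adjusted p = 0.291).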
